A study of Rattus norvegicus with 6 samples.

Results

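The lysyl oxidases and the collagen hydroxylases are the enzymes that modify collagen inside the cell and tie it into fibres outside. The 10 genes described here, Lox, Loxl1, Loxl2, Loxl3, Loxl4, Plod1, Plod2, Plod3, P4ha1 and P4ha2, were chosen by symbol as members of these enzyme families, and all 10 were present, on 1 row each, among the 16551 genes of the mRNA table. They were compared in primary cells of dorsal root ganglia, the sensory ganglia beside the spinal cord, taken from lumbar and sacral levels of rats whose strain, age and sex the labels do not give. The cells were dispersed with trypsin and kept for 48 h either in DMEM, a standard culture medium, as 3 control samples (control 1 to 3) or in a high-glucose medium at 45 mmol/L as 3 samples titled DM, called high glucose 1 to 3 here. No genetic change or other agent is named for either group, the glucose of the control medium is not given, and no osmotic control is named. A step of fixation is described without saying whether the sequenced cells underwent it. Nothing says that the replicates, termed duplicates, were separate animals or cultures, so p-values here cover the variation of these 6 samples alone, and that variation may be technical.

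Collagen chains are modified while they fold in the endoplasmic reticulum. Prolyl 4-hydroxylases, tetramers of a catalytic alpha subunit (P4ha1, P4ha2 or P4ha3) and the beta subunit P4hb, hydroxylate prolines and so let the triple helix hold at body temperature. Lysyl hydroxylases (Plod1, Plod2, Plod3) hydroxylate lysines, which sets both the sugars the chain can carry and the kind of cross-link it can form. All of these need iron, ascorbate and 2-oxoglutarate. Once the protein is secreted, lysyl oxidases, which are copper enzymes, oxidise lysines and hydroxylysines of collagen and elastin, and the products cross-link. In peripheral nerve and ganglia this work is known chiefly from fibroblasts and other cells of the connective tissue sheaths.

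The mRNA table held 28780612 to 33108451 reads per sample. The cells are labelled as nerve cells. The 10 neuron markers together made up 102 to 106 CPM (counts per 1e6 reads of the scaled library) per control sample, against 61.3 to 62.8 in high glucose. Uchl1 (means of 58.8 and 48.0 CPM) and Tubb3 (23.1 and 8.89) made up most of that sum. Rbfox3, Snap25, Elavl4 and Isl1 had 0 reads in at least 1 sample. Of these 10, 7 were lower in high glucose, or 4 when scarce genes were left out of the fit. Fibroblast markers, among them Col1a1, were 6 of 8 higher and 2 lower, with Col1a1 making up most of their sum (34451 to 36840 CPM in control against 26883 to 29383). The sum of the other 7, taken after the values were seen, went the other way, at 811 to 834 CPM in control and 1635 to 1675 in high glucose. Lum made up most of that rise, with means of 187 CPM in control and 832 in high glucose. Thy1, among these 7, fell (means of 371 and 335 CPM). On unscaled read totals, and after quantile normalization, 6 fibroblast markers were higher and 1 lower. Of Schwann cell markers 7 of 7 were lower (493 to 516 CPM against 300.1 to 330.4), and of satellite glia markers 4 of 6 were lower and 1 higher (96.6 to 98.7 CPM against 115 to 123). The rise of the satellite glia sum was that of Glul (means of 51.0 and 95.4 CPM), while Cdh19, Ednrb, Cadm2 and Fabp7 fell. Of mural and smooth muscle markers 7 of 10 were lower and 1 higher (15006 to 15147 CPM against 8411 to 8490). Acta2 (means of 6734 and 2868 CPM) and Tagln (5615 and 3857) made up most of that sum. On unscaled read totals 7 of these markers were lower and 2 higher. After quantile normalization 6 were lower and 2 higher, with Tagln at 0. Endothelial markers had none of 6 called (58.2 to 61.7 CPM against 56.2 to 58.8), with Kdr and Tie1 at 0 reads in at least 1 sample. Of these, 1 was called lower without control 3, high glucose 3 or scarce genes or when centred on the median gene, and 1 higher without high glucose 1. Macrophage markers had 2 of 7 higher and 2 lower, 1 lower without control 1, high glucose 2 or high glucose 3 (20.6 to 21.6 CPM against 27.3 to 28.5). The rise of the macrophage sum lay mostly in Cd14 (means of 10.2 and 15.8 CPM) and Csf1r (3.47 and 5.56), while Adgre1 and Cx3cr1 fell. In such bulk samples, fewer cells of a type and less RNA per cell cannot be told apart, and the part of these shifts in the results below was not tested.

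Among the 10 enzyme genes, Lox and Loxl1 rose in high glucose and Loxl2, Loxl4, Plod2, Plod3 and P4ha1 fell, while Loxl3, Plod1 and P4ha2 did not pass the test. The test was limma's linear model on the deposited log2 values, adjusted over all genes of the table by Benjamini-Hochberg, with a threshold of 0.05. So 2 of the 10 were called higher, where 24.9% of all genes were, and 5 were called lower, where 25.5% were. The 3 high-glucose values lay entirely above or entirely below the 3 control values in all 10 members, and in 57.6% of all genes. The median log2 fold change (high glucose minus control) was -0.09 over the members and 0.01 over all genes. Scaling bears on this count: the authors' scaling factors lay at 0.959 to 0.964 for the controls and at 1.03 to 1.05 for high glucose, and on unscaled read totals the median of all genes moved to 0.13, with 5932 genes higher and 2847 lower in place of 4126 and 4228. On those totals 4 members were higher and 3 lower, and after quantile normalization 3 and 3. Centring on the median gene went the other way: Loxl3 and P4ha2 were called lower in addition (adjusted p = 0.032 and 0.0169). Lox, Loxl1, Loxl4, Plod2 and Plod3 (5 members) were called in the same direction under all 15 alternatives tried.

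**Figure D1:**
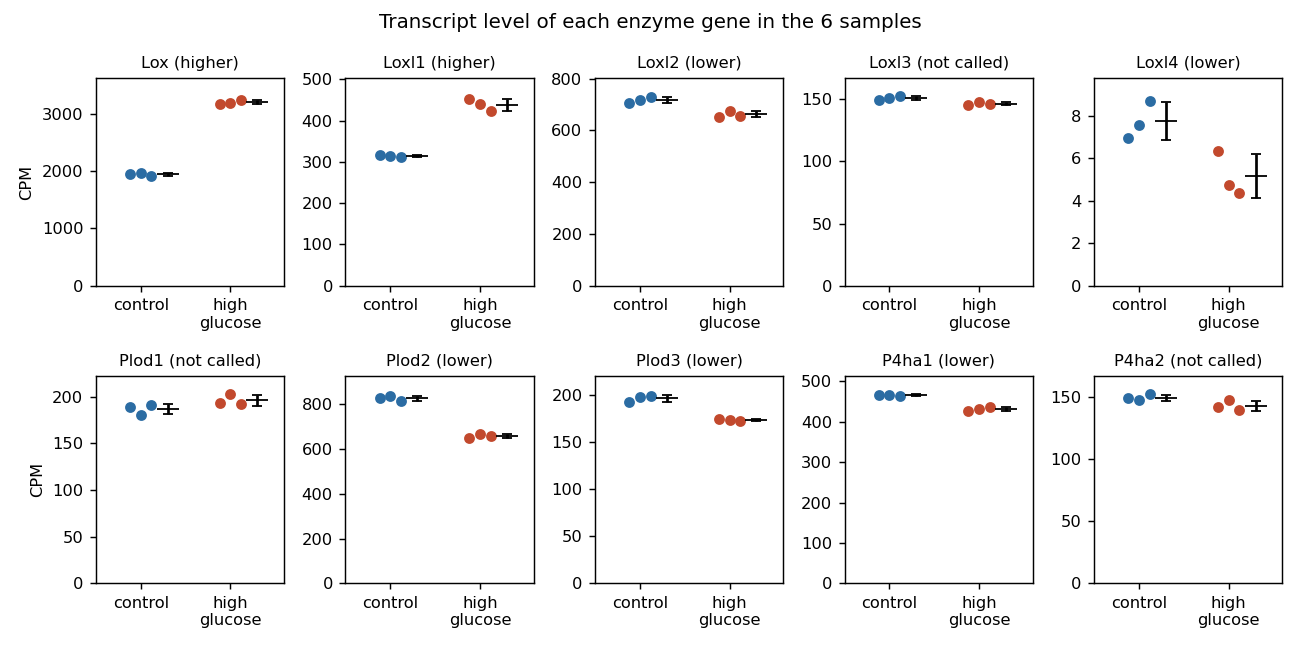
Level of each of the 10 genes in CPM (y axis, from 0, its own scale per gene) in the 3 control samples (blue) and the 3 high-glucose samples (red), with the mean and SD of each group in black at the right of its points and the limma call in the title. Lox stood between 1915 and 1964 CPM in control and between 3172 and 3244 in high glucose, while the shifts of Loxl3, Plod1 and P4ha2 were small against their level.

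Of the 5 lysyl oxidases, Lox and Loxl1 rose. Lox (ENSRNOG00000014426), the main cross-linking enzyme of fibrillar collagen and elastin, was at 1951, 1964 and 1915 CPM in control 1 to 3 and at 3172, 3179 and 3244 CPM in high glucose 1 to 3. The groups stood far apart and each varied little, at means of 1943 ± 25.1 and 3198 ± 40.1 CPM (SD, n = 3). Lox rose 1.65-fold (log2 fold change 0.72 ± 0.02, SE; adjusted p = 7.58e-13), and 20.3% of all genes changed by more in either direction. The value was 0.83 on unscaled read totals and 0.91 after quantile normalization.

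Loxl1 (ENSRNOG00000008680), which maintains elastic fibres, was at 316, 313 and 311 CPM in control 1 to 3 and at 452, 441 and 423 CPM in high glucose 1 to 3. The high-glucose samples were more spread than the controls, with SDs of 14.6 and 2.22 CPM, but did not come near them. Loxl1 was 1.40-fold higher (log2 fold change 0.48 ± 0.02, adjusted p = 1.64e-09), a smaller rise than that of Lox.

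The other three lysyl oxidases, which share scavenger receptor domains ahead of the catalytic part, did not rise. Loxl2 (ENSRNOG00000016758), known for cross-linking the type IV collagen of basement membranes, was at 706, 718 and 730 CPM in control and at 653, 676 and 656 CPM in high glucose. The groups did not overlap, but the gap was narrow: the log2 fold change was -0.12 ± 0.02 (adjusted p = 2.72e-04), a small shift. Its call depended on the scaling, since the value was -0.05 after quantile normalization (adjusted p = 0.0768) and -0.003 on unscaled read totals (adjusted p = 0.924). Loxl4 (ENSRNOG00000015727) was the scarcest member, with 193, 233 and 257 reads in control 1 to 3 and 189, 148 and 149 in high glucose 1 to 3. In CPM these were 6.97, 7.56 and 8.71 against 6.32, 4.74 and 4.38, so that high glucose 1 and control 1 lay close together. Loxl4 was 1.52-fold lower (-0.60 ± 0.14, adjusted p = 0.00228), and with 1 sample left out its log2 fold change ran from -0.76 (without high glucose 1) to -0.50 (without high glucose 3). Loxl3 (ENSRNOG00000061373), known for its part in palate and spine development, was at 149, 151 and 152 CPM in control and at 145, 147 and 146 in high glucose. That difference did not pass (-0.04 ± 0.02, adjusted p = 0.129), and on unscaled read totals it turned to 0.07 (adjusted p = 0.0266), while centring on the median gene gave -0.07 (adjusted p = 0.032). Loxl3 overlaps Htra2, a mitochondrial protease gene, in the RefSeq gene table of GRCr8, and the strand of the counting is not given, so reads of the overlap cannot be told apart.

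Lox made up more of its family in high glucose. By reads, which are not corrected for transcript length and so compare a gene between samples rather than genes with each other, Lox took 62.4%, 62.3% and 61.4% of the family's reads in control 1 to 3 and 71.6%, 71.5% and 72.5% in high glucose 1 to 3. The share of Loxl2 was 22.9% ± 0.44 (SD, n = 3) in control and 14.9% ± 0.29 in high glucose, and that of Loxl3 4.81% ± 0.064 and 3.29% ± 0.024. Shares are parts of a whole, so a rise of Lox lowers those of the others. The levels of Loxl2 and Loxl3 themselves changed by only -7.75% and -3.05%, and Loxl3 was not called. The share of Loxl1 overlapped between the groups, at 10.0% ± 0.083 and 9.86% ± 0.38. The family's summed level went from 3133 ± 18.1 to 4450.3 ± 23.2 CPM, which is given without a test.

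**Figure D2:**
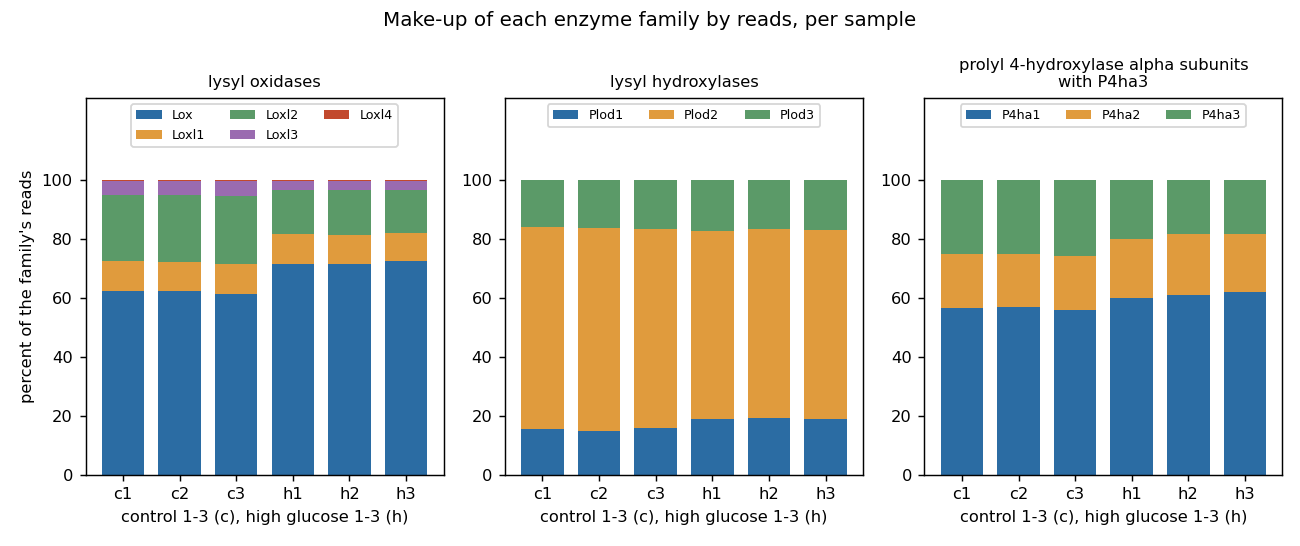
Percent of each enzyme family's reads (y axis) taken by each gene in control samples 1 to 3 (c1 to c3) and high-glucose samples 1 to 3 (h1 to h3). The Lox segment grows from 61.4% to 62.4% in control to 71.5% to 72.5% in high glucose, and the P4ha3 segment shrinks from 25.3% ± 0.43 to 18.8% ± 0.91 (SD, n = 3).

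Among the lysyl hydroxylases, Plod2 fell and the others moved less. Plod2 (ENSRNOG00000030183), which hydroxylates lysines in the telopeptides, the ends of the chain where hydroxylysine-based cross-links start, was at 828, 835 and 811 CPM in control and at 649, 666 and 656 CPM in high glucose. All 3 high-glucose samples lay well below the controls. Plod2 was 1.26-fold lower (-0.33 ± 0.02, adjusted p = 6.44e-09), or -0.20 after quantile normalization and -0.21 on unscaled read totals, both past the threshold. Plod3 (ENSRNOG00000001417), which also adds sugars to hydroxylysine, was at 192, 198 and 199 CPM in control and at 174, 173 and 172 in high glucose. It was 1.13-fold lower (-0.18 ± 0.02, adjusted p = 2.05e-05), or -0.11 after quantile normalization and -0.07 on unscaled read totals (adjusted p = 0.0026 and 0.0317). Plod3 overlaps Znhit1, a gene of chromatin remodelling with a log2 fold change of -0.24, in the same gene table, so it carries the same uncertainty of strand as Loxl3. Plod1 (ENSRNOG00000007763), which hydroxylates lysines of the helix, was at 189, 181 and 191 CPM in control and at 193, 203 and 193 in high glucose. Control 3 and high glucose 3 nearly met, and the difference did not pass (0.07 ± 0.03, adjusted p = 0.0605). It did pass, as higher, on unscaled read totals (0.18, adjusted p = 1.58e-04), after quantile normalization (0.14, adjusted p = 0.00293), without control 3 (adjusted p = 0.0447) or high glucose 3 (adjusted p = 0.0472), without scarce genes (adjusted p = 0.0499) and with a robust variance prior (adjusted p = 0.0399), while the value was 0.04 without control 2 (adjusted p = 0.259). The summed level of the 3 genes was 1208 ± 6.67 CPM in control and 1026 ± 13.6 CPM in high glucose (SD, n = 3).

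The alpha subunits of prolyl 4-hydroxylase changed little, apart from the one outside the set. P4ha1 (ENSRNOG00000050655), the catalytic subunit of the main form of the enzyme, was at 468, 467 and 463 CPM in control and at 426, 431 and 436 in high glucose. The samples of a group agreed closely, so that a small difference passed the test (-0.11 ± 0.02, adjusted p = 2.00e-04). This call was lost with the scaling: the value was 0.007 after quantile normalization (adjusted p = 0.76) and 0.002 on unscaled read totals (adjusted p = 0.95). P4ha1 also overlaps Snrpd2l, listed as a pseudogene (0.07). P4ha2 (ENSRNOG00000033663), the alternative catalytic subunit, was at 149, 148 and 152 CPM in control and at 142, 147 and 140 in high glucose. Control 2 and high glucose 2 nearly met, and the difference did not pass (-0.07 ± 0.03, adjusted p = 0.0606). It passed without high glucose 2 (-0.09, adjusted p = 0.0199), without scarce genes (adjusted p = 0.0498) and when centred on the median gene (-0.09, adjusted p = 0.0169), and turned to 0.05 on unscaled read totals (adjusted p = 0.187). P4ha3, the remaining catalytic subunit, fell from 209 ± 4.75 to 133 ± 6.67 CPM (SD, n = 3), or 1.57-fold (-0.65 ± 0.03, adjusted p = 2.22e-09). P4hb, the beta subunit, which is also the protein disulfide isomerase, was at 1073 ± 16.6 and 1019 ± 23.3 CPM (-0.08 ± 0.02, adjusted p = 0.0066). Its value turned to 0.19 after quantile normalization (adjusted p = 3.10e-04) and to 0.04 on unscaled read totals (adjusted p = 0.169), and lost its call without the variance trend (adjusted p = 0.119).

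**Figure D3:**
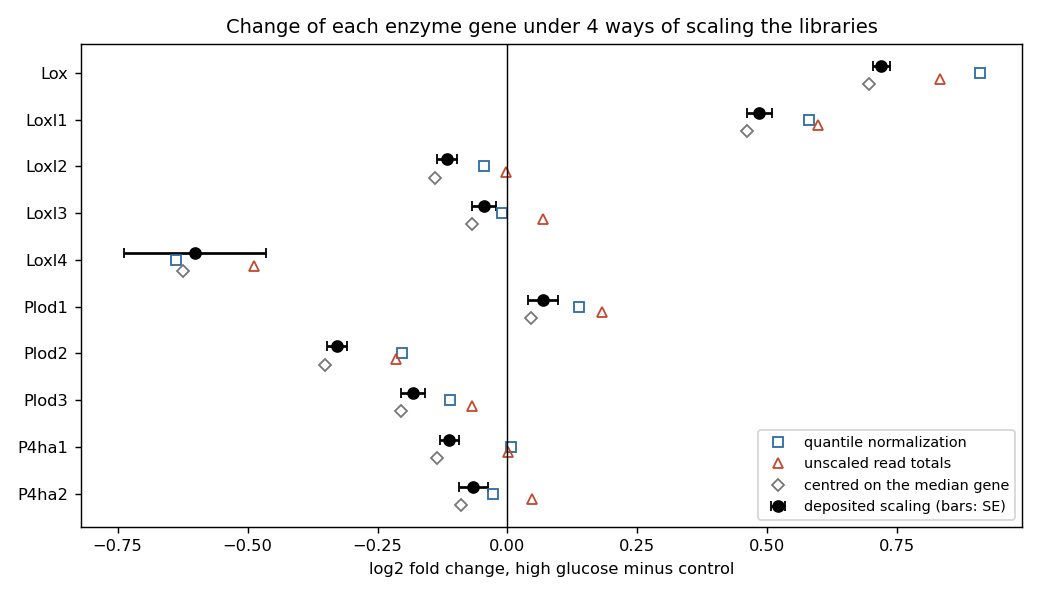
Log2 fold change (x axis, high glucose minus control) of the 10 genes with the deposited scaling (black, bars are the SE), after quantile normalization (blue squares), on unscaled read totals (red triangles) and centred on the median gene (grey diamonds). Lox and Loxl1 stay right of 0 and Loxl4, Plod2 and Plod3 left of it under all 4, whereas P4ha1 runs from -0.14 to 0.007 and Loxl3 from -0.07 to 0.07.

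Since several members are textbook targets of hypoxia-inducible factors (HIF), their promoters were read for the core of the HIF binding motif, ACGTG or GCGTG on either strand, in the 250 bases before the start given by RefSeq for GRCr8. Entries were found for 8 of the members, all but Lox and Loxl2. Of these 8, 6 held at least 1 match, as did 36.7% of all 33469 promoters listed. The form ACGTG alone was in 25% of the 8 and in 16.6% of all. The 8 promoters were 60.4% (Loxl1) to 74.8% (Plod2) G and C, for which the shares were not adjusted. Plod2 (4 matches), which fell, P4ha1 (2 matches), whose change hung on the scaling, and Loxl1 (0 matches), which rose, are shown because they stand for these 3 patterns. The sequences run 5′ to 3′ along the gene and end at the base before the start, and capitals mark the matches.
Plod2: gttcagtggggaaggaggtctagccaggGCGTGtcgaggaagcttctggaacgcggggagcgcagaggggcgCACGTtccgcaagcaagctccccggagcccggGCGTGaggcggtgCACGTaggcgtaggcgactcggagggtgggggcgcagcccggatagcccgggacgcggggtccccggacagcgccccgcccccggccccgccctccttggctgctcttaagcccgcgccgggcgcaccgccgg
P4ha1: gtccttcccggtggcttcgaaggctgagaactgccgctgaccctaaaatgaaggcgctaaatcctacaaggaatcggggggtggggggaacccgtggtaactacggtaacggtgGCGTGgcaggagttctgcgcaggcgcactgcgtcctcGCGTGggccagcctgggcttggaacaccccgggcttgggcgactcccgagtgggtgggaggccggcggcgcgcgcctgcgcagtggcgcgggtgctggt
Loxl1: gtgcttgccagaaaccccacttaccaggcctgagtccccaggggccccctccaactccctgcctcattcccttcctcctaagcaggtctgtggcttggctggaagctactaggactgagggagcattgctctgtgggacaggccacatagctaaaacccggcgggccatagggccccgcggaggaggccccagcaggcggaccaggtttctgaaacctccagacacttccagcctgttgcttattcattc
A match is a run of letters and was not tested as a binding site. Among the other promoters read, that of P4ha2, which was not called, held 5 matches, and that of Loxl4, which fell as Plod2 did, held 0. Those of Loxl3, Plod1 and Plod3 held 1 each. The 3 shown were picked, and a link between matches and direction was not tested.

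Genes of oxygen sensing and HIF targets, with the members left out, moved both ways: 9 of 22 were higher and 9 lower, with a median log2 fold change of 0.03. That count pools sensors and regulators with targets. Sorted by role, which the list did not do beforehand, more of the listed targets fell than rose, and this was not tested. Higher were the sensors and regulators Hif1a, Epas1, Arnt, Egln2 and Vhl and the targets Ndrg1, Bnip3l, Slc2a1 and Mxi1. Lower were the sensor Egln1 and the targets Vegfa, Adm, Bnip3, Pdk1, Ldha, Pgk1, Ero1a and Kdm3a. Hif1a, the oxygen-regulated subunit, rose 1.23-fold (0.30 ± 0.02, adjusted p = 8.04e-08), although its protein level is set mainly after translation and was not measured. Among the targets, Ndrg1 rose 2.39-fold (1.26 ± 0.04, adjusted p = 2.09e-11) and Slc2a1, the glucose transporter GLUT1, 1.61-fold (0.69 ± 0.03, adjusted p = 2.67e-10). Vegfa, the endothelial growth factor, fell from 127 ± 2.64 to 48.5 ± 1.67 CPM (SD, n = 3), 2.63-fold (-1.39 ± 0.03, adjusted p = 1.10e-12). Bnip3, of mitochondrial clearance, and Egln1, the oxygen sensor PHD2, fell as well (-0.72 ± 0.07 and -0.49 ± 0.06, adjusted p = 2.00e-06 and 1.01e-05). Plod2 fell along with Vegfa, while Ndrg1, Slc2a1, Bnip3l and Mxi1 rose. Lox rose along with Ndrg1 and Slc2a1, while Vegfa, Bnip3 and most other listed targets fell. A link of HIF to the members was not tested.

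Within single samples, the ratio of Lox to each of its paralogs was higher in all 3 high-glucose samples than in any control, and that of Plod2 and Plod3 to Plod1 lower. Such ratios do not depend on the factor by which a library is scaled. Each was tested with a two-sided exact permutation test over the samples, for which 3 against 3 cannot give a p below 0.1, so none can pass 0.05. In the comparison of members with each other, 8 pairs were tested. The log2 ratio of Lox to Loxl2 was 1.47, 1.45 and 1.39 in control 1 to 3 and 2.28, 2.23 and 2.31 in high glucose 1 to 3. It was thus 1.78-fold higher in high glucose, with no overlap (difference 0.84, exact p = 0.1, adjusted p = 0.114 over the 8 pairs). The ratios of Lox to Loxl1, Loxl3 and Loxl4 were higher by 0.23, 0.76 and 1.32 on the log2 scale, each with no overlap and the same p. The ratio of Plod2 to Plod1 was 2.13, 2.21 and 2.08 in control and 1.75, 1.72 and 1.77 in high glucose, a difference of -0.40 with no overlap (exact p = 0.1, adjusted p = 0.114). The ratio of Plod3 to Plod1 was lower too (-0.25, no overlap, exact p = 0.1), while P4ha2 against P4ha1 overlapped between groups (0.05, exact p = 0.2). The ratio of Lox, which oxidises lysine residues, to Plod2, which hydroxylates them, was 1.24, 1.23 and 1.24 in control and 2.29, 2.26 and 2.31 in high glucose, a 2.07-fold shift (1.05, exact p = 0.1).

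**Figure D4:**
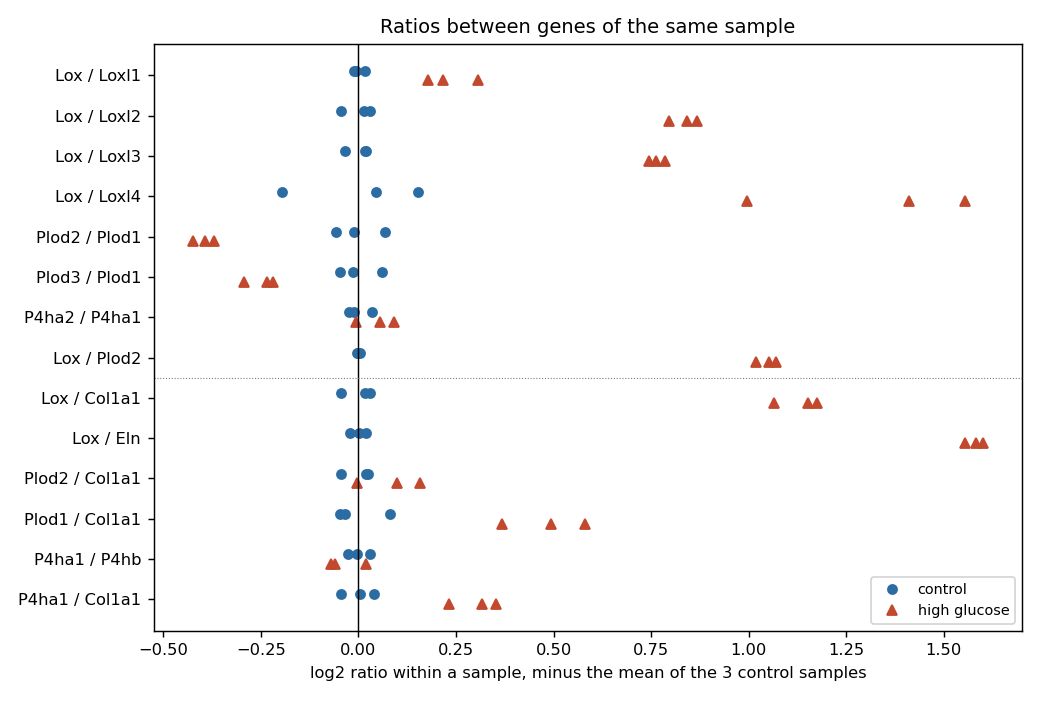
Log2 ratio between 2 genes of the same sample (x axis), as its distance from the mean of the 3 control samples, for control (blue circles) and high-glucose samples (red triangles). The 8 pairs above the dotted line are between members and the 6 below it set a member against a substrate or partner. Lox moves right against every gene it was set against, by 0.23 for Loxl1 and by 1.58 for Eln, and the groups overlap for P4ha2 to P4ha1, Plod2 to Col1a1 and P4ha1 to P4hb.

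Lox and the hydroxylases were also set against their substrates. Of 10 fibrillar collagen chains measured, 6 fell and 2 rose, or 4 and 3 after quantile normalization, with a median log2 fold change of -0.26. Col1a2 was not analysed here. Col1a1, a chain of type I collagen, fell from 34811 ± 1206 to 26170 ± 1378 CPM (SD, n = 3; -0.41 ± 0.03, adjusted p = 1.35e-07), and Col5a1 and Col5a2, chains of type V collagen, fell too (-0.70 ± 0.03 and -0.36 ± 0.02, adjusted p = 7.21e-11 and 4.77e-10), with Col5a2 at -0.12 after quantile normalization. Col3a1, of type III collagen, and Col27a1 rose (0.28 ± 0.01 and 0.63 ± 0.03, adjusted p = 3.26e-09 and 1.90e-09). After quantile normalization Col1a1 and Col3a1 were both at 0.00, since each holds the same rank in all 6 samples. The log2 ratio of Lox to Col1a1 was -4.21, -4.15 and -4.13 in control and -3.01, -2.99 and -3.10 in high glucose, 2.19-fold higher with no overlap (exact p = 0.1, adjusted p = 0.15 over 6 pairs). Plod1 and P4ha1 were also higher relative to Col1a1 (by 0.48 and 0.30, each exact p = 0.1). After quantile normalization, which rescales each library by rank and holds Col1a1 fixed, these were 0.14 for Plod1 (exact p = 0.1) and 0.007 for P4ha1 (exact p = 0.7), against 0.91 for Lox (exact p = 0.1). Plod2 to Col1a1 overlapped between the groups (0.08, exact p = 0.3), as did P4ha1 to P4hb (-0.04, exact p = 0.3). After quantile normalization they were at -0.20 and -0.18 (each exact p = 0.1).

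Most genes of other proteins that lysyl oxidases bind or cross-link fell while Lox rose. Of 9 measured, 7 fell and 1 rose, with a median of -0.54, or 6 and 2 on unscaled read totals, 5 and 2 after quantile normalization, and 2 higher without control 3. Eln, elastin, was at 127 ± 0.45 CPM in control and at 70.1 ± 1.27 CPM in high glucose (SD, n = 3), 1.82-fold lower (-0.86 ± 0.03, adjusted p = 1.58e-11). Postn, periostin, which helps bring Bmp1 to the matrix, and Thbs1, thrombospondin, were 1.99-fold and 1.97-fold lower (-0.99 ± 0.02 and -0.98 ± 0.02, adjusted p = 2.82e-14 and 1.08e-13), with Thbs1 at -0.53 after quantile normalization. Efemp2, fibulin-4, which tethers Lox to elastic fibres, rose slightly (0.10 ± 0.02, adjusted p = 9.55e-04, and 0.22 on unscaled read totals). The log2 ratio of Lox to Eln was 3.93, 3.95 and 3.91 in control and 5.49, 5.53 and 5.52 in high glucose, so that Lox transcript per Eln transcript was 2.99-fold higher (1.58, exact p = 0.1).

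The other enzymes and chaperones of procollagen in the endoplasmic reticulum split, with 8 of 15 higher and 4 lower and a median of 0.14. Those that rose included P3h4, a partner of lysyl hydroxylase 1 (0.72 ± 0.03, adjusted p = 7.40e-11), Fkbp14, a prolyl isomerase (0.44 ± 0.03, adjusted p = 5.68e-08), and P3h1, which hydroxylates prolines at the 3-position (0.25 ± 0.02, adjusted p = 1.80e-06). P3h4 was 1.65-fold higher while Plod1 did not pass. Those that fell, beside P4ha3 and P4hb, were Serpinh1, the collagen chaperone HSP47, at 3028 ± 39.9 and 2148 ± 38.5 CPM (SD, n = 3; -0.50 ± 0.02, or -0.28 after quantile normalization, adjusted p = 5.02e-11 as deposited), and Ppib, cyclophilin B (-0.22 ± 0.03, or -0.10 on unscaled read totals, adjusted p = 1.47e-05 as deposited). Genes of export and processing of procollagen were 5 higher and 5 lower of 13, with a median of 0.05, or 8 and 3 on unscaled read totals and 9 and 4 after quantile normalization. Bmp1, the protease that frees the C-terminal propeptide of collagen and also activates pro-Lox, rose 1.17-fold (0.22 ± 0.02, adjusted p = 1.29e-06, and 0.34 on unscaled read totals). Its relative Tll1 fell (-0.73 ± 0.04, adjusted p = 4.61e-09). The propeptidase genes Adamts3 and Adamts14 had log2 fold changes of 1.12 ± 0.07 and -1.27 ± 0.05 (adjusted p = 2.06e-08 and 2.01e-10), Sar1b, of transport vesicles, rose (0.36 ± 0.04, adjusted p = 6.30e-06), and Creb3l1, a transcription factor of collagen secretion, fell (-0.47 ± 0.05, adjusted p = 2.82e-06).

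**Figure D5:**
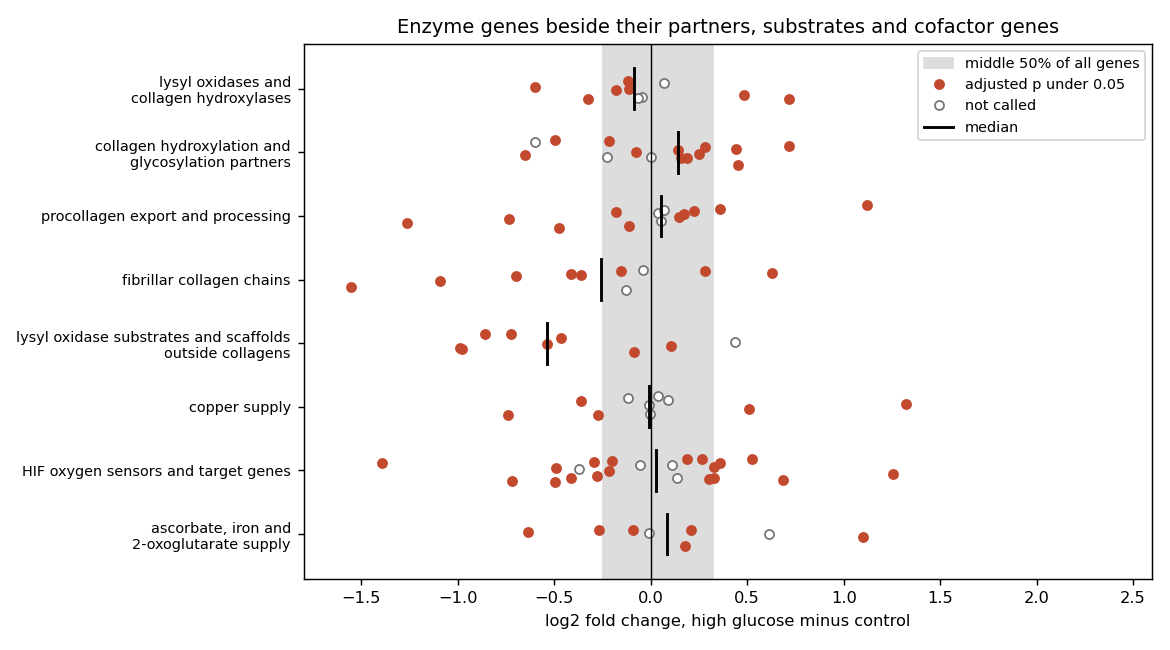
Log2 fold change (x axis, high glucose minus control) of the 10 enzyme genes and of the measured genes of 7 lists around them, filled where the adjusted p is under 0.05, with the list's median as a black bar and the interquartile range of all genes in grey. The list of lysyl oxidase substrates and scaffolds has its median at -0.54, while Lox, the rightmost enzyme gene, lies at 0.72.

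Genes of copper supply moved both ways. Atp7a, the pump that loads copper into lysyl oxidases in the secretory pathway, rose 1.42-fold, from 130 ± 1.94 to 185 ± 0.68 CPM (SD, n = 3; 0.51 ± 0.02, adjusted p = 7.00e-10), and its scarce relative Atp7b rose as well, on 126 reads in control and 342 in high glucose (1.32 ± 0.18, adjusted p = 2.88e-05). Of the 10 genes 2 were higher and 3 lower, with a median of -0.01, or 3 and 1 on unscaled read totals and 3 and 3 after quantile normalization. The 3 lower were the metallothioneins Mt1 (-0.74 ± 0.19, adjusted p = 0.00539) and Mt2A (-0.36 ± 0.12, adjusted p = 0.0264), which bind copper and zinc, and Steap3, a metal reductase (-0.28 ± 0.07, adjusted p = 0.00473, and -0.16 with an adjusted p of 0.0687 on unscaled read totals). Mt2A lost its call without control 2 (-0.22, adjusted p = 0.135), high glucose 1 (adjusted p = 0.0536) or high glucose 3 (adjusted p = 0.0863), on unscaled read totals (adjusted p = 0.111) and without the variance trend (adjusted p = 0.095).

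Of 8 genes measured for the supply of ascorbate, iron and 2-oxoglutarate, 3 were higher and 3 lower, with a median of 0.08, or 5 and 2 on unscaled read totals and 3 and 2 after quantile normalization. Slc23a2, the ascorbate transporter SVCT2, rose 1.13-fold (0.18 ± 0.03, adjusted p = 2.36e-04) and Glud1, which makes 2-oxoglutarate from glutamate, 1.16-fold (0.21 ± 0.03, adjusted p = 1.98e-05), or 0.29 and 0.32 on unscaled read totals. The iron exporter Slc40a1 rose on 67 reads in control and 154 in high glucose (1.10 ± 0.27, adjusted p = 0.00409), and the transferrin receptor Tfrc fell 1.56-fold (-0.64 ± 0.03, adjusted p = 3.35e-09). Idh2, which makes 2-oxoglutarate in mitochondria, fell (-0.27 ± 0.03, adjusted p = 1.89e-06, and -0.16 on unscaled read totals). The iron importer Slc11a2 was near the threshold (-0.09 ± 0.04, adjusted p = 0.0491). Its call ended without control 2 (adjusted p = 0.17), control 3 (0.127), or any of high glucose 1, 2 and 3 (0.0642, 0.148 and 0.0726). It also ended with a replicate block (adjusted p = 0.08), without the variance trend (0.115) and after quantile normalization (0.159), and the value turned to 0.02 on unscaled read totals.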

How the data were processed

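RNA was sequenced from 3 control and 3 high-glucose samples, grouped by their titles. The prefix DM was taken as high glucose, which the labels do not say in those words. The build Rnor_6.0 and the tools HISAT2 2.1.0, featureCounts 1.6.0 and fastp 0.19.4 are named in the submitters' processing notes. Their settings, the annotation and the strand of counting are not given in the sources used here. The authors deposited voom-normalized log2 values per gene, per the file names. A table of lncRNA rows was not used here, since none carries a member's symbol. Undoing the voom formula, in which 0.5 is added to each read count before scaling, brought 100% of values within 0.01 of a whole read. CPM in the text is 2 to the power of the deposited value. Whole reads served only for depth, shares and alternatives.

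Limma 3.58.1 in R 4.3.3 was fitted to the deposited log2 values of all genes (group as term, mean-variance trend, two-sided, Benjamini-Hochberg) and tested on simulated data. Ratios had exact permutation tests, adjusted over their 8 or 6 pairs. For a symbol on several rows the most abundant row was kept, and 2 list genes were matched through RefSeq synonyms (GRCr8). Cell type markers and overlapping genes aside, values are given for the members and up to 3 genes per direction and list by adjusted p. P4hb, P4ha3, Col1a1, Col3a1, Eln, Bmp1, Hif1a and Atp7a were added whatever their values. The other called HIF genes are named without values. Members and lists were chosen with earlier results of these data known. The lists were those of procollagen partners, export and processing, fibrillar collagens, other lysyl oxidase substrates and scaffolds, copper supply, HIF, cofactor supply and 7 cell types. Alternatives were quantile normalization, median centring, unscaled totals, 2 reads added, dropping scarce genes (mean log2 value under 0), other variance models, voom weights, a replicate block and leaving out each of the 6 samples. Figures were drawn with matplotlib 3.10.9.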

Additional observations from a re-analysis of the deposited data

How the results depend on the processing

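Of 150 refits of the 10 members, 134 kept direction and side of the threshold. Of the rest, 2 lost the call and 10 gained it with direction kept, and 4 changed direction. Those 4 are counted apart, although P4ha1 also lost its call in its fits there and Loxl3 gained one. The changes of direction were Loxl3 at 0.0689 and P4ha2 at 0.0481 on unscaled read totals, and P4ha1 at 0.00154 there and at 0.00718 after quantile normalization. On unscaled read totals 4 members were higher and 3 lower, and after quantile normalization 3 were lower. Centred on the median gene, Loxl3 and P4ha2 were called lower in addition to the members called lower as deposited. Outside the members, P4hb turned to 0.19 after quantile normalization and to 0.0382 on unscaled read totals, and Slc11a2 to 0.0194 on the latter. Of 126 recomputed ratios, the 2 that turned did so after quantile normalization, which is no scaling by a constant: P4ha2 to P4ha1 (-0.0349) and Plod2 to Col1a1 (-0.20), where Col1a1 is fixed by its rank, while P4ha1 to Col1a1 shrank from 0.30 to 0.00718 without turning. Counts of all genes called ran from 7369 without the variance trend to 8779 on unscaled read totals, beside 8354 as deposited, and the share of these called higher was 67.6% on unscaled totals and 49.4% as deposited. Same-numbered samples did not deviate together (correlations of -0.09, -0.04 and 0.03 across genes), so the numbers were not taken as pairs. With a replicate block 8052 genes were called, and the member calls were as without it, while Slc11a2 lost its call (adjusted p = 0.08). Depth limits Loxl4 most, with 148 to 257 reads per sample.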
